A study of Homo sapiens with 4 samples.

Results

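The genes described here are 9 replication-independent histone variant genes, matched by the gene symbol used in the deposited table: H2AFZ, H2AFV, H2AFX, H2AFY, H2AFY2, H2AFJ, H3F3A, H3F3B and H1FX. All 9 have a row among the 26830 genes of the table. Testing needed an average of 1 TPM or more, which 8 of them reached, and H3F3A was listed at 0 throughout. TPM values are length-normalised shares of a library, scaled to sum to 1000000. The groups are 2 Flag-RIP libraries, of RNA recovered with an antibody against the Flag tag, and 2 input libraries, of RNA with no antibody step. Both came from U2OS, a human osteosarcoma cell line, infected with the lentivirus pmiRNA1-3 x Flag-QKI7 and kept as GFP-positive cells, so the inputs carry the tagged protein too. The cells were cross-linked with ultraviolet light, and the RNA is described as ribozero RNA. Replicates are numbered 1 and 2 in each group, but nothing says that the numbers stand for separate cultures. The p-values therefore measure the spread between these libraries, which may be technical. RNA from a mock precipitation, or from cells without the tagged protein, was not analysed here.

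Most histone proteins are made in S phase from clustered genes whose mRNAs end in a stem-loop and carry no poly(A) tail. Histone variants are made throughout the cell cycle, largely from single genes with polyadenylated mRNAs, and replace the canonical histones at particular sites or times. QKI7 is an isoform of QKI, an RNA-binding protein of the STAR family that acts in splicing, mRNA stability and translation. The comparison of recovered with input RNA asks which transcripts it binds.

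The libraries differed as wholes, and this touches every value below. The median of log2(TPM + 1) over the 10415 tested genes was 2.75 and 2.67 in the Flag-RIP libraries, against 1.195 and 1.59 in the inputs. The 20 most abundant rows took 83.8% and 84.3% of the TPM in Flag-RIP, against 94.1% and 92.9% in input. ERCC spike-ins, which are synthetic RNAs, took 18.9% and 25.6% in Flag-RIP and 2.78% and 3.89% in input. A median tested gene had 3.32 times as much TPM in Flag-RIP as in input. Changes are therefore given relative to the library medians, and are called centred changes. The values as deposited stand beside them. TPM keeps no read depth, so no counting interval is given. Of the osteosarcoma and mesenchymal markers, VIM had 279 and 259 TPM in Flag-RIP and 141 and 182 in input, and COL1A1 113 and 116 in Flag-RIP and 53.8 and 83.7 in input, while COL1A2 was at most 0.34. The blood cell markers PTPRC and CD3E reached at most 0.11 TPM, and ALB was at 0.

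Relative to the library medians, H2AFZ, H2AFJ and H2AFY2 fell by 0.88, 0.77 and 0.65 on the log2 scale. The other 5 tested genes, H2AFX, H3F3B, H2AFV, H1FX and H2AFY, had changes of 0.32, 0.14, 0.09, -0.20 and -0.36 and did not pass the test. In all, 0 of these 8 genes were higher and 3 were lower (limma with Benjamini-Hochberg adjustment over all tested genes, threshold 0.05; 0 and 4 at an unadjusted p under 0.05). Among all tested genes 16.4% were called higher and 24.4% lower, so the count of 3 lower lies near its background. The median change of the 8 was -0.28, against -0.11 over all tested genes. As deposited, limma called 7 of the 8 higher and 0 lower (also 0 lower at an unadjusted p under 0.05), where 92.3% of all tested genes were called higher and 0.317% lower. Both Flag-RIP values lay above both input values for each of the 8, as they did for 96.7% of tested genes.

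**Figure D1:**
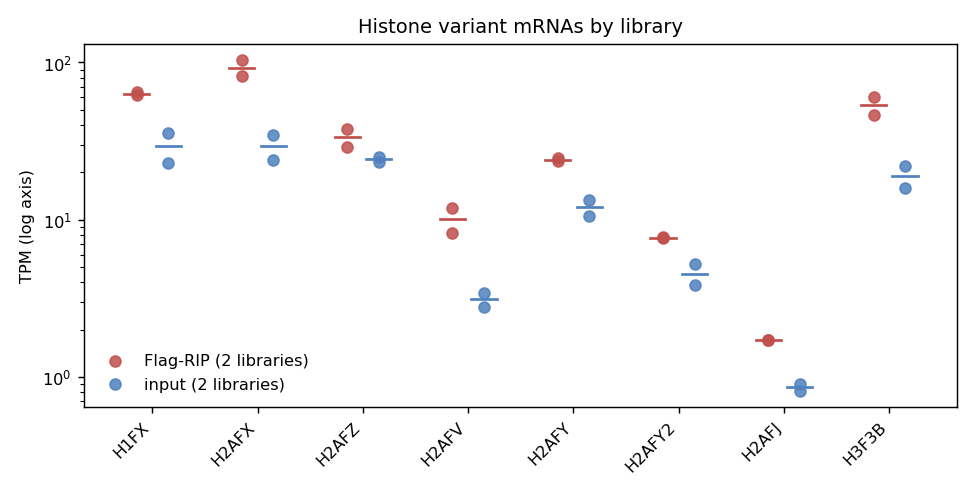
TPM of the 8 tested histone variant genes (log axis), with 1 point for each library and a line at the group mean, Flag-RIP left of input. Flag-RIP lies above input for each gene, and the 2 groups lie closest together for H2AFZ.

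Linker histones bind the DNA that enters and leaves the nucleosome. H1FX encodes the linker histone H1.10. Its TPM was 62.0 and 64.7 in Flag-RIP and 22.9 and 35.9 in input. The Flag-RIP values were nearly equal and the inputs were not. The mean ratio was 2.16, and the centred change was -0.20 (SE 0.17, limma adjusted p = 0.38). With a pseudocount of 0.1 it was -0.58 and passed (limma adjusted p = 0.027). Its neighbour H1FX-AS1, an antisense RNA named after its values were seen, had 2.17 and 2.15 TPM in Flag-RIP and 0.22 and 0.40 in input. The annotated spans of the pair overlap only from 129316271 to 129316286 on chromosome 3, at the start of H1FX. The library kit was stranded, but no source states whether the counting used strand, so reads of that overlap cannot be told apart.

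H2A.Z is the variant placed at promoters by the SRCAP and EP400 remodellers, and it is encoded by a pair of genes, H2AFZ and H2AFV. H2AFZ had 29.2 and 37.7 TPM in Flag-RIP and 23.4 and 25.0 in input. The lower Flag-RIP value lay only a little above the higher input. The means were 33.4 ± 6.05 TPM in Flag-RIP and 24.2 ± 1.11 TPM in input (SD, n = 2 each), and their ratio of 1.38 was the lowest of the tested members. The centred change was -0.88 (SE 0.20, limma adjusted p = 0.012), and 5.06% of tested genes had a smaller one. As deposited, H2AFZ was the 1 tested gene here that did not pass, with a change of 0.44 (limma adjusted p = 0.19).

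H2AFV was present at a lower level, with 11.9 and 8.29 TPM in Flag-RIP and 2.81 and 3.44 in input. Its ratio of 3.23 was close to that of the median gene. Its centred change was 0.09 (SE 0.15, limma adjusted p = 0.64), and the centred values of the groups overlapped. Without Flag-RIP replicate 1 the change was -0.10, and without Flag-RIP replicate 2 it was 0.29 and passed (limma adjusted p = 0.049). The direction of H2AFV thus depended on which Flag-RIP library was used, and a pseudocount of 0.1 also reversed it (-0.076).

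Within a library, the ratio of H2AFV to H2AFZ does not depend on how the library is scaled. It was 0.41 and 0.22 in Flag-RIP and 0.12 and 0.14 in input. Both Flag-RIP ratios lay above both inputs, with a log2 difference of 1.22, or 2.33-fold. Without Flag-RIP replicate 1 the difference was 0.78. An exact permutation test gave p = 0.333 (two-sided, n = 2 each; 0.333 after adjustment over the 3 pairs computed), which is the smallest p that 2 against 2 libraries allow. Processed copies of H2AFZ and H3F3B exist in the genome, so the division of their reads is uncertain.

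H2AX is the variant phosphorylated at DNA double-strand breaks by the kinases ATM, ATR and DNA-PK. Its gene, H2AFX, is known to give a stem-loop as well as a polyadenylated mRNA. H2AFX had 103 and 82.6 TPM in Flag-RIP and 24.1 and 34.8 in input, so the groups lay well apart. The ratio was 3.15, just under that of the median gene. The centred change of 0.32 (SE 0.18, limma adjusted p = 0.18) did not pass. After quantile normalization it was 0.57 and passed (limma adjusted p = 0.039), and with a pseudocount of 5 it was 0.85 and passed (limma adjusted p = 0.0093). With a pseudocount of 0.1 it was -0.051 (limma adjusted p = 0.81), so the sign for H2AFX depended on the pseudocount. H2AFX also overlaps the annotated span of DPAGT1, an enzyme gene of protein glycosylation, which had 2.15 and 2.17 TPM in Flag-RIP and 0.82 and 1.05 in input.

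MacroH2A carries a large extra domain and is known from silent chromatin, including the inactive X chromosome. H2AFY, the gene of macroH2A1, had 24.6 and 23.7 TPM in Flag-RIP and 10.6 and 13.3 in input. The ratio was 2.02 and the centred change -0.36 (SE 0.14, limma adjusted p = 0.071), just short of the threshold. It passed with a pseudocount of 0.1, at -0.71 (limma adjusted p = 0.016). H2AFY2, the gene of macroH2A2, had 7.65 and 7.76 TPM in Flag-RIP and 3.87 and 5.20 in input. Its ratio was 1.70, and the centred change of -0.65 (SE 0.11) had the smallest adjusted p of the members, at 0.0040 (limma). H2AFY2 overlaps the annotated span of AIFM2, which had 3.34 and 3.99 TPM in Flag-RIP and 1.47 and 2.17 in input. AIFM2 also fell, by 0.58 (limma adjusted p = 0.0080). H2AFY overlaps C5orf66, which had 1.16 and 0.96 TPM in Flag-RIP and 0.05 and 0.21 in input. How reads of these overlaps were divided was not tested. The ratio of H2AFY2 to H2AFY was 0.31 and 0.33 in Flag-RIP and 0.36 and 0.39 in input, a log2 difference of -0.24 (exact permutation p = 0.333, n = 2 each, the smallest possible). The groups did not overlap, but they lay close together.

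H2AFJ encodes H2A.J, a variant known to accumulate in senescent fibroblasts. It was the least abundant tested member, with 1.72 and 1.73 TPM in Flag-RIP and 0.91 and 0.82 in input. Its ratio was 1.99 and its centred change -0.77 (SE 0.18, limma adjusted p = 0.014). At this level the added pseudocount weighs heavily, and with a pseudocount of 0.1 the call was lost (-0.80, limma adjusted p = 0.058).

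The 3 lower calls, of H2AFZ, H2AFY2 and H2AFJ, were all lost without input replicate 1. Their changes were then -0.73, -0.63 and -0.54, against -0.88, -0.65 and -0.77 with all 4 libraries. That fit keeps 1 input library, whose spread is assumed to be that of the other group. Far fewer of all tested genes passed in it, in either direction, than with all 4 libraries. All 3 calls were also lost with no filter on low genes, which alters the library medians subtracted and so shifts all genes alike. That of H2AFZ was lost after quantile normalization (-0.73, limma adjusted p = 0.051) and with a pseudocount of 5 (-0.28). Those of H2AFY2 and H2AFJ were lost with the 20 most abundant rows left out (-0.50 and -0.27). That last fit was not centred, and the median change of all tested genes in it was 0.45.

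**Figure D2:**
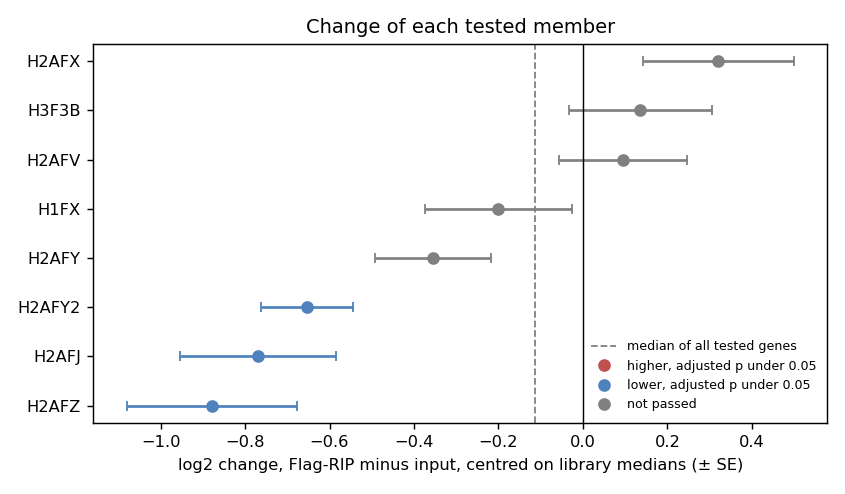
Centred log2 change of each tested member, Flag-RIP minus input, with its standard error from the limma fit; the dashed line marks the median of all tested genes at -0.11. H2AFX has the highest change, at 0.32, without passing, and H2AFY2, H2AFJ and H2AFZ, at -0.65, -0.77 and -0.88, passed as lower.

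H3.3 is the replacement form of histone H3, and H3F3A and H3F3B are known to encode the same protein. H3F3B had 60.2 and 46.5 TPM in Flag-RIP and 16.0 and 21.8 in input. Its ratio was 2.82, and its centred change was 0.14 (SE 0.17, limma adjusted p = 0.54), with overlapping centred values. With a pseudocount of 5 it was 0.62 and passed (limma adjusted p = 0.018). It was -0.22 with a pseudocount of 0.1 (limma adjusted p = 0.31), so this sign too depended on the pseudocount. H3F3A, a gene in use in most cells, was listed at 0 in all 4 libraries, so nothing can be said of its recovery. The row of H3F3AP4, a transcribed pseudogene of the H3F3A family named after its values were seen, had 17.3 and 15.6 TPM in Flag-RIP and 11.9 and 12.7 in input. It fell by 0.92 relative to the medians (limma adjusted p = 0.0038), a call lost without input replicate 1, at -0.77. How reads of H3F3A and its copies were divided was not tested. H3F3C, a retrotransposed relative, was at most 0.26 TPM.

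The ratio of H3F3B to H3F3AP4, which takes the place of the planned ratio of H3F3B to H3F3A, was 3.47 and 2.97 in Flag-RIP and 1.35 and 1.72 in input, a log2 difference of 1.08. The groups did not overlap, and the exact permutation p was 0.333 (n = 2 each), the smallest possible.

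**Figure D3:**
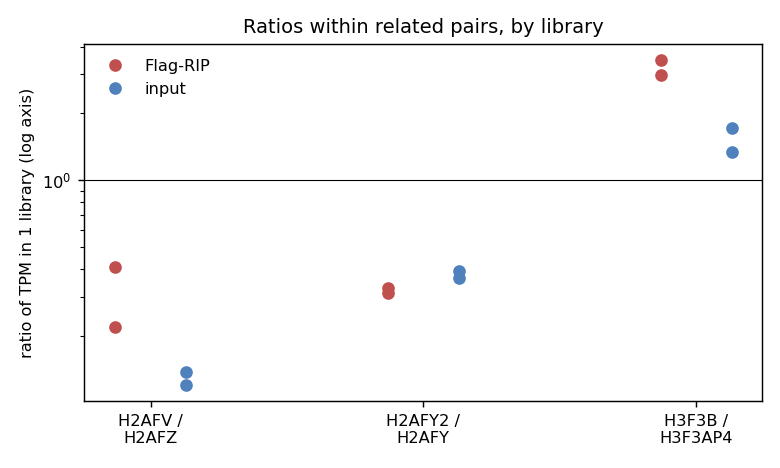
Ratio of the TPM of 2 related genes within each library (log axis), Flag-RIP left of input. The ratios H2AFV to H2AFZ and H3F3B to H3F3AP4 are higher in both Flag-RIP libraries, and H2AFY2 to H2AFY is lower.

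The 8 tested genes together summed to 300.1 and 273 TPM in Flag-RIP and 105 and 140.2 in input, a ratio of means of 2.34. H2AFX made up 32.3% ± 2.85 of that sum in Flag-RIP and 23.9% ± 1.26 in input (SD, n = 2 each). H2AFZ made up 11.8% ± 2.90 in Flag-RIP and 20.1% ± 3.24 in input. The groups did not overlap for either gene, nor for H2AFV, H2AFY, H2AFY2 and H3F3B. They overlapped for H2AFJ and for H1FX, which made up 22.2% ± 2.15 in Flag-RIP and 23.7% ± 2.61 in input. With 2 against 2 libraries, such a separation alone carries little weight. Shares of 1 sum are not independent of each other.

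By mean TPM the order in Flag-RIP was H2AFX, H1FX, H3F3B, H2AFZ, H2AFY, H2AFV, H2AFY2 and H2AFJ, and the ranges of neighbours did not overlap. In input it was H2AFX, H1FX, H2AFZ, H3F3B, H2AFY, H2AFY2, H2AFV and H2AFJ. There the ranges of H2AFX and H1FX overlapped, as did those of H1FX and H2AFZ. H3F3B thus stood above H2AFZ in Flag-RIP and below it in input, and H2AFV likewise against H2AFY2.

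The ratios of these 8 genes ran from 1.38 to 3.23 and lay below the median ratio of all tested genes. Abundance moved with this measure. The 1819 tested genes that averaged 10 TPM or more had a median ratio of 2.54, and the other 8596 had 3.45. H2AFX and H3F3B lay above 2.54, while H2AFZ, H2AFY and H1FX, which also averaged over 10 TPM, lay below it. The part of abundance in the members' ratios was not tested.

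No single scale fixes the direction of a typical gene, so each gene was followed over several. With libraries scaled to the spike-ins, limma called all 8 tested genes lower, where 60.9% of all tested genes were called lower and 3.12% higher. With the 20 most abundant rows left out and no centring, H2AFZ was called lower and the other 7 did not pass. In that fit 7.02% of all tested genes were called lower and 36% higher. H2AFX had the highest change on 5 of the 6 scales of the plot of changes by scale, and with spike-ins H2AFV and H2AFJ lay above it, at -0.89 and -0.96 against -1.05. H2AFZ had the lowest change on 5 of the 6, and with a pseudocount of 5 H2AFJ was lower, at -0.47 against -0.28. H2AFJ thus had the second lowest change on the centred scale and the second highest with spike-ins. Scaling whole libraries does not alter the order of TPM ratios. The pseudocount of 1 draws a change towards 0 most at the low TPM of H2AFJ, so its rank with spike-ins is not a sign of better recovery.

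**Figure D4:**
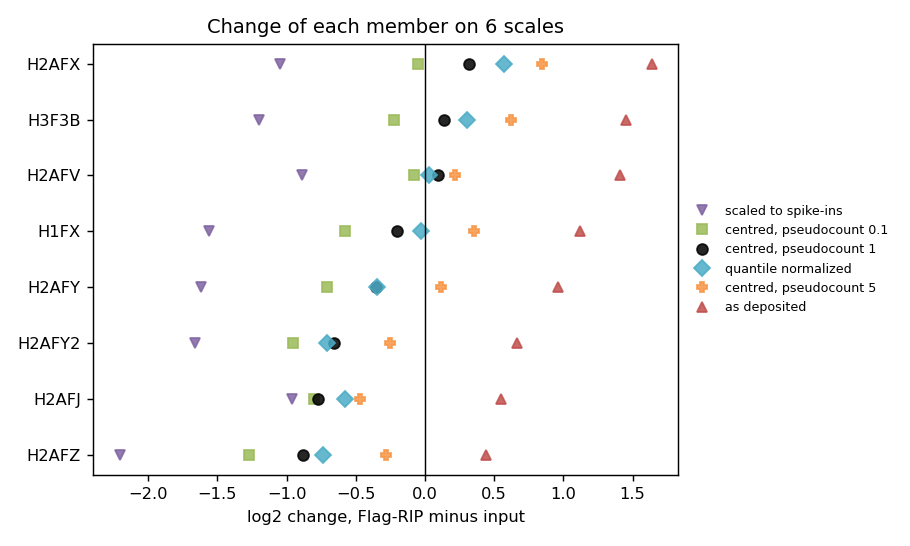
Log2 change of each tested member, Flag-RIP minus input, on 6 scales. All members lie above 0 as deposited and below 0 when scaled to the spike-ins, while H2AFJ lies near the low end on the other scales and near the high end with spike-ins. The pseudocount weighs most on H2AFJ, the least abundant tested member.

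Set beside the replication-dependent histones, which are the genes whose symbols begin with HIST1H, HIST2H, HIST3H or HIST4H, the variants had a higher median. Of 73 such rows, 47 were tested, and 41 were lower and 2 higher on the centred scale, where 24.4% and 16.4% of all tested genes were. As deposited limma called 12 of the 47 lower and 6 higher, with a median change of -0.28, against a background of 0.317% and 92.3%. Their median centred change was -1.60, against -0.28 for the 8 variants. By class the medians were -1.37 for 3 H1 genes, -1.71 for 13 H2A genes, -1.41 for 13 H2B genes, -1.59 for 6 H3 genes and -1.78 for 12 H4 genes. The centred changes of the 6 tested H2A variants ran from -0.88 to 0.32, and those of the replication-dependent H2A genes from -2.22 to -0.62. H1FX, at -0.20, lay above all 3 replication-dependent H1 genes, which ran from -1.42 to -1.28. The H2B genes ran from -3.18 to 1.22 and held both higher rows, named after their values were seen. HIST1H2BC rose by 1.22, more than any variant, with 641 and 443 TPM in Flag-RIP and 102 and 80.3 in input. HIST2H2BC rose by 0.51. Some rows, such as HIST2H2AA3 and HIST2H2AA4, had identical values and were each counted. The largest changes were those of HIST2H2BF, which had 0 and 1.13 TPM in Flag-RIP and 5.85 and 3.13 in input and fell by 3.18, and of HIST1H4K, which fell by 2.93 (limma adjusted p = 0.0021 and 0.0023). Both calls were lost with robust variance fitting. Relative to the median of all tested genes the replication-dependent list was lower on all scales, filters and pseudocounts run, with medians of -2.29 to -0.70 from it, while the median of the variants lay -0.70 to 0.43 from it. The difference between the lists was not tested as such, since their members share libraries and, among the clustered genes, near-identical sequences.

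**Figure D5:**
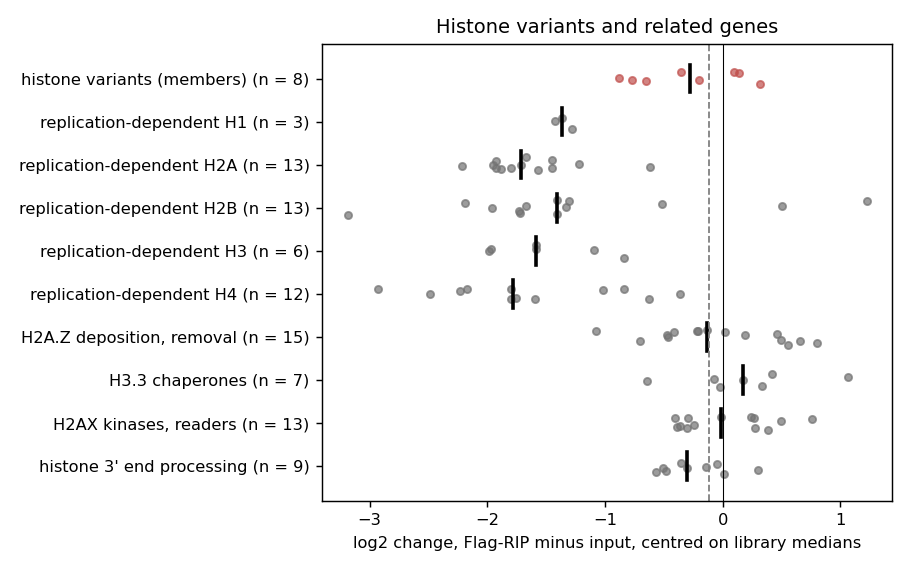
Centred log2 changes of single genes, Flag-RIP minus input, for the histone variants (top row), the replication-dependent histone classes and 4 lists of genes that handle histones; bars are medians and the dashed line is the median of all tested genes. The variants spread around the dashed line, and the medians of the replication-dependent classes lie between -1.37 and -1.78.

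CENPA, the centromeric H3 variant, was the only tested gene among 9 other histone variants. It had 7.83 and 5.77 TPM in Flag-RIP and 3.16 and 3.85 in input, and it fell by 0.53 on the centred scale (limma adjusted p = 0.017). The call was lost without input replicate 1 or input replicate 2, at -0.45 and -0.62. The short H2A variant row H2AFB1 had 0.07 and 0.76 TPM in Flag-RIP and 0.01 in each input, and was not tested.

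The mRNAs of proteins that place or remove the variants went both ways. Of 17 genes for H2A.Z deposition and removal, 15 were tested, of which 5 were higher and 4 lower, with a median of -0.13. Among all tested genes 16.4% were called higher and 24.4% lower, so the count of 4 lower lies near its background. SRCAP, the catalytic subunit of the complex that inserts H2A.Z, had 27.6 and 23.4 TPM in Flag-RIP and 3.83 and 6.60 in input, and it rose by 0.81 (limma adjusted p = 0.0052). ZNHIT1, a small subunit of the same complex, had 6.75 and 8.91 TPM in Flag-RIP and 6.14 and 6.68 in input, and it fell by 1.07 (limma adjusted p = 0.0035). Subunits of 1 complex thus lay on both sides of the median.

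Of 10 H3.3 chaperone genes 7 were tested, with 2 higher and 1 lower and a median of 0.17. The shares over all tested genes were 16.4% higher and 24.4% lower. DAXX was not analysed here. NASP, a chaperone of soluble H3 and H4, had 39.9 and 47.7 TPM in Flag-RIP and 5.63 and 10.1 in input, and it rose by 1.06 (limma adjusted p = 0.0044). ASF1B, a chaperone that hands H3 and H4 to others, had 4.2 and 4.89 TPM in Flag-RIP and 2.22 and 2.74 in input, and it fell by 0.64 (limma adjusted p = 0.0063).

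Among 18 kinase, reader and repair genes of H2AX, 13 were tested, with a median of -0.01. Limma called 2 higher and 0 lower (4 and 4 at an unadjusted p under 0.05). Over all tested genes it called 16.4% higher and 24.4% lower, so the count of 2 higher lies near its background. RNF168, a ubiquitin ligase that acts after H2AX phosphorylation, rose by 0.76 (limma adjusted p = 0.0034), with 14.7 and 11.9 TPM in Flag-RIP and 1.84 and 3.02 in input. MDC1, which binds phosphorylated H2AX, rose by 0.50 (limma adjusted p = 0.017), with 14.5 and 14.8 TPM in Flag-RIP and 2.61 and 4.46 in input. The call of MDC1 was lost with a pseudocount of 0.1, at 0.35, and without input replicate 1 or input replicate 2, at 0.40 and 0.60. H2AFX itself, at 0.32, did not pass.

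Of 11 genes for the 3' end processing of replication-dependent histone mRNAs, 9 were tested, with a median of -0.30. Limma called 0 higher and 4 lower (the same counts at an unadjusted p under 0.05), where 16.4% and 24.4% of all tested genes were. As deposited, limma called all 9 higher, where 92.3% of all tested genes were called higher. With the 20 most abundant rows left out the median was 0.12, against 0.45 over all tested genes in that uncentred fit. Limma called 2 higher and 0 lower there, where 36% of all tested genes were called higher. With no filter it called 3 higher and 1 lower of 11, where 5590 of all 23463 genes fitted were called higher and 10238 lower. CPSF3, the endonuclease, fell by 0.57 and CSTF2, a cleavage stimulation subunit, by 0.51 (limma adjusted p = 0.0063 and 0.0097). In limma's fit without input replicate 1, where 3.19% of all tested genes were called higher and 3.09% lower, all 4 lists had 0 calls in either direction. At an unadjusted p under 0.05 that fit gave 4 higher and 3 lower in the H2A.Z list, 1 and 1 in the H3.3 list, 1 and 1 in the H2AX list, and 0 and 2 in the processing list. Without input replicate 2 the H2A.Z list had 3 higher and 2 lower and the processing list 1 lower, where 7.17% of all tested genes were called higher and 9.48% lower. Without Flag-RIP replicate 1 the H2AX list had 5 higher and 0 lower, against 18.3% and 24.8% of all tested genes, and without Flag-RIP replicate 2 it had 2 higher and 3 lower, against 22% and 30.6%.

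The tested genes whose 4 centred log2 values lay nearest to those of H2AFZ, the member with the largest change, were EDF1, COX6A1 and CCT7. Their Euclidean distances were 0.21, 0.24 and 0.25 over 4 libraries, among 3996 genes that averaged 5 TPM or more. EDF1, a transcriptional coactivator, had 28.6 and 33.9 TPM in Flag-RIP and 21.7 and 23.3 in input. COX6A1, a subunit of cytochrome c oxidase, had 30.6 and 36.5 in Flag-RIP and 27.6 and 25.9 in input. CCT7, a subunit of a cytosolic chaperonin, had 29.5 and 39.2 in Flag-RIP and 20.0 and 26.8 in input. These 3 genes were picked for their likeness to H2AFZ, so the narrow gap between the groups that they share with it follows from the choice.

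All 9 genes matched the RefSeq gene table of GRCh38.p14 through an older symbol. In its coordinates H1FX (now H1-10) lies on chromosome 3 from 129314771 to 129316286. H2AFZ (H2AZ1) lies on chromosome 4 from 99948088 to 99950275 and H2AFV (H2AZ2) on chromosome 7 from 44826889 to 44848126. H2AFX (H2AX) lies on chromosome 11 from 119093874 to 119095465 and H2AFJ (H2AJ) on chromosome 12 from 14774405 to 14778002. H2AFY (MACROH2A1) spans chromosome 5 from 135334381 to 135399887 and H2AFY2 (MACROH2A2) chromosome 10 from 70052846 to 70112282. H3F3A (H3-3A) lies on chromosome 1 from 226061831 to 226072019 and H3F3B (H3-3B) on chromosome 17 from 75776434 to 75779779. The members are thus spread over 9 chromosomes, and as a row covers a whole gene, the recovered stretch of each mRNA is not known.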

How the data were processed

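The 4 libraries share 1 table of TPM values, deposited by the authors. The submitters' processing notes name STAR, RSEM 1.2.31 and the GRCh38 build; no annotation, filter or strand setting is stated. Columns sum to about 1000000, with 92 ERCC rows included.

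ERCC rows were kept in the total and left out of the tests. Genes averaging 1 TPM or more were tested with limma 3.58.1 in R 4.3.3 (mean-variance trend, two-sided, Benjamini-Hochberg over 10415 genes). The values were log2(TPM + 1) minus each library's median. This scale understates changes of low genes. It also understates the gap between the library medians, which raises the centred changes of abundant genes. Alternatives were other scalings, pseudocounts, filters, variance models, a replicate block and leaving out each library. The fit was tested on simulated centred values with known changes. These held no gap between library medians, so they do not bear on the choice of scale. The members, lists and scale were chosen with earlier results of these data known. 1 of the 10 listed members and 1 marker are not reported here, and counts, sums and medians of members leave that member out. Named genes are the other members, the 2 list members with the largest called change (or highest TPM), and the 3 nearest patterns; others are marked. The planned ratio of H3F3B to H3F3A could not be computed.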

Additional observations from a re-analysis of the deposited data

How the results depend on the processing

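Counts of the 8 variants and of all tested genes (higher and lower) depended on the processing. Against 0 and 3 variants and 1703 and 2545 genes, limma gave 7 and 0 variants and 9608 and 33 genes as deposited, 0 and 8 variants and 325 and 6339 genes scaled to spike-ins, and 0 and 1 variants and 3748 and 730 genes with the 20 most abundant rows left out. With no filter the counts were 3 and 0 variants and 5590 and 10238 genes, and at a mean TPM of at least 5 they were 0 and 3 variants and 1025 and 1171 genes, where fewer genes were tested. After quantile normalization the counts were 1 and 2 variants and 1842 and 2136 genes. With a pseudocount of 5 they were 2 and 2 variants and 2354 and 3483 genes. Leaving out 1 library gave 0 to 1 variants higher, 0 to 3 lower (0 without input replicate 1; 3 at an unadjusted p under 0.05), 332 to 2294 genes higher and 322 to 3184 lower. Other causes were not tested.

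As deposited the direction reversed for H2AFZ (0.44), H2AFY (0.96), H2AFY2 (0.66), H2AFJ (0.55), H1FX (1.12), ASF1B (0.67), CCT7 (0.54), CENPA (0.78), COX6A1 (0.31), CPSF3 (0.75), CSTF2 (0.81), EDF1 (0.45), H3F3AP4 (0.40) and ZNHIT1 (0.24). Scaled to spike-ins it reversed for H2AFV (-0.89), H2AFX (-1.05), H3F3B (-1.20), MDC1 (-0.56), NASP (-0.20), RNF168 (-0.21) and SRCAP (-0.37). These are shifts of whole libraries. A pseudocount of 0.1 reversed H2AFV (-0.076), H2AFX (-0.051) and H3F3B (-0.22), and a pseudocount of 5 reversed H2AFY (0.12) and H1FX (0.35). With no filter H2AFY (0.20), H1FX (0.36), CENPA (0.023) and CSTF2 (0.052) reversed. This too was a shift common to all genes, from the library medians subtracted. Leaving out each library in turn gave -0.10 to 0.29 for H2AFV and -0.0091 to 0.28 for H3F3B, and both reversed without Flag-RIP replicate 1. The pair ratios kept their direction with a pseudocount of 1 and without each library in turn. Same-numbered libraries did not deviate together (r = -0.07 across 10415 genes, which are not independent), so the numbers were not taken as pairs; with the replicate block 0 variants were higher and 3 lower, and no call among the 8 changed.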
